A study of Mus musculus with 6 samples.

Results

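The Sox groups C, E and F are families of transcription factors that direct cell fate outside the oocyte. Their RNA was followed by RNA-seq in mouse oocytes at the germinal vesicle (GV) stage, when they are fully grown and still arrested in meiosis. The members were the 9 genes Sox4, Sox11 and Sox12 (SoxC), Sox8, Sox9 and Sox10 (SoxE), and Sox7, Sox17 and Sox18 (SoxF). They were found by matching Entrez identifiers to mouse symbols, and all 9 were among the 24421 genes of the table. DKO oocytes were Ring1 -/-, carried floxed Rnf2 (Rnf2 f/f) and had the Zp3-cre transgene, whose promoter is active in growing oocytes. SKO oocytes were Ring1 -/- with Rnf2 f/f and no transgene. Ring1 and Rnf2 encode the catalytic subunits of Polycomb repressive complex 1 (PRC1), and neither genotype had a working Ring1, so DKO against SKO asks what losing Rnf2 as well does. Effects of Zp3-cre as such and of the deletion cannot be told apart. Each genotype had 3 libraries, each from 15 oocytes pooled from 1 female of about 3 months, on mixed FVB, 129/Sv and C57BL/6J background.

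Sox proteins bind the minor groove of DNA through an HMG box and bend it, and the groups are defined by the likeness of that box. SoxC factors act in neural and mesenchymal progenitors, SoxE factors in cartilage, neural crest, glia and Sertoli cells, and SoxF factors in blood vessels and endoderm. Genes of this kind are typical Polycomb targets in embryonic cells, where PRC1 places ubiquitin on histone H2A at their CpG-rich promoters.

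Total counts were 15521975 to 26652745 in DKO libraries and 22990699 to 26437540 in SKO libraries. A single read was worth 0.0388 to 0.0569 CPM (counts over TMM-scaled library size, in the usual CPM unit) in DKO and 0.0402 to 0.0460 CPM in SKO. Rnf2 had 56.3, 30.7 and 22.9 CPM in DKO replicates 1 to 3, against 203, 180 and 187 CPM in SKO replicates 1 to 3, and was called lower (log2 fold change -2.38, SE 0.30, edgeR adjusted p = 0.000349). Ring1 had 19 counts in all DKO libraries together and 10 in all SKO libraries, below the filter for testing. The oocyte markers identified the tissue: the 11 genes summed to 12070 to 15751 CPM in DKO and 21096 to 22248 CPM in SKO, led by Gdf9, Bmp15 and Nlrp5. Of these 11 genes, 7 were called lower and 0 higher (edgeR, 0 at an unadjusted p under 0.05 and 0 by DESeq2). Without SKO replicates 1, 2 and 3 in turn, 4, 4 and 3 were called lower. Over all genes tested, 7.41% were lower and 17.3% higher. Every library pooled 15 oocytes. For other cell types, fewer cells and less RNA per cell cannot be told apart in such bulk libraries. Granulosa cells had been removed by pipetting, and their markers are given below.

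Sox4, Sox11, Sox9 and Sox17 rose in DKO oocytes, where SKO oocytes held 19 or fewer counts of each in all. Sox8, Sox12 and Sox7 were tested and did not pass the threshold, and Sox10 and Sox18 had too few counts to be tested. Thus 4 of the 9 members, of which 7 were tested, were called higher, where 17.3% of all 14845 genes tested were higher. None was called lower (0 by edgeR, 0 at an unadjusted p under 0.05, 0 by DESeq2), where 7.41% of all genes were. Of the genes that passed the filter on SKO libraries alone, as Sox8 and Sox12 did, 11.9% were higher and 8.65% lower. All 4 risen members passed the filter on low counts through DKO libraries alone, so they had to be higher in DKO to be tested at all. Among the genes that needed DKO libraries to pass, 49.0% were called higher and 0.0466% lower. There were 5 such members, the 4 risen ones and Sox7, which passed through 1 DKO and 2 SKO libraries. The count of 4 risen among these 5 is read against the 49.0%. The median log2 fold change over all genes was 0.04.

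**Figure D1:**
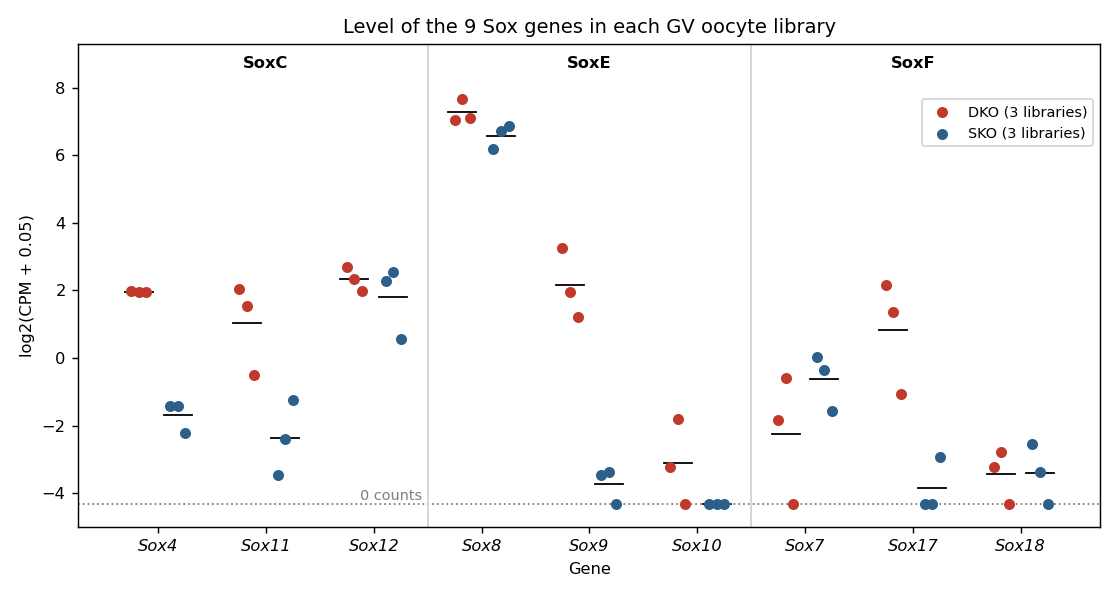
Level of each of the 9 genes in each library, as log2(CPM + 0.05), with DKO left of SKO. Points are libraries, short bars are means of the 3 log2 values, and points on the dotted line had 0 counts. The DKO and SKO points of Sox4, Sox11, Sox8, Sox9 and Sox17 do not overlap.

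In the plot of levels by library, 5 of the 9 genes had groups that did not overlap, namely the 4 risen genes and Sox8. Over all genes tested, 44.3% had groups that did not overlap. Each of the 4 risen genes had 3 DKO and 0 SKO libraries over the filter's bar. The way they passed the filter thus all but fixed that their groups did not overlap. The 44.3% is not split by filter, so it is no yardstick for these 4 genes.

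Within the SoxC group, Sox4 and Sox11 rose and Sox12 did not pass the threshold. Sox4 (chromosome 13, 28948919 to 28953699, GRCm38, RefSeq annotation) encodes a factor that acts in progenitors of neurons, lymphocytes and heart. It had 3.93, 3.80 and 3.84 CPM in DKO libraries, from 69, 81 and 99 counts, and 0.322, 0.322 and 0.164 CPM in the SKO libraries, from 8, 7 and 4 counts. The 3 DKO values lay within 1.03-fold of each other and the groups were far apart. The log2 fold change was 3.82 (SE 0.52, edgeR adjusted p = 0.000558), a 14.1-fold rise.

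Sox11 (chromosome 12, 27334268 to 27342718) encodes a factor of young neurons. It had 4.04, 2.86 and 0.660 CPM in DKO replicates 1 to 3, from 71, 61 and 17 counts. In SKO replicates 1 to 3 it had 0.0402, 0.138 and 0.370 CPM, from 1, 3 and 9 counts. Every DKO library was above every SKO library, with a narrow gap between DKO replicate 3 and SKO replicate 3. The log2 fold change was 3.74 (SE 0.89, adjusted p = 0.0127), and without DKO replicate 1 it was 3.22 with an adjusted p of 0.0569.

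Sox12 (chromosome 2, 152393611 to 152398046), the third member, shares much of its activity with the other two in mouse embryos. In DKO replicates 1 to 3 it had 6.37, 4.98 and 3.92 CPM, against 4.83, 5.80 and 1.44 CPM in SKO replicates 1 to 3. The groups overlapped, and SKO replicate 3 stood below the other 5 libraries. The log2 fold change was 0.34 (SE 0.50, adjusted p = 0.659), with -0.66 to 1.33 spanning 2 SE to either side. Without SKO replicate 3 it was -0.08. SKO oocytes thus held Sox12 at 4.02 ± 2.29 CPM (SD, n = 3), above Sox4 at 0.269 ± 0.091 CPM and Sox11 at 0.183 ± 0.169 CPM, though levels in CPM are not corrected for length.

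The promoters of all 3 SoxC genes were at hand (RefSeq, GRCm38.p6), and they are shown because their transcripts behaved differently. Each is the 250 bases before the annotated start, read 5′ to 3′ on the minus strand, with every CG dinucleotide, the letters that unmethylated CpG islands are rich in, in capitals.
Sox4, chr13:28953700-28953949: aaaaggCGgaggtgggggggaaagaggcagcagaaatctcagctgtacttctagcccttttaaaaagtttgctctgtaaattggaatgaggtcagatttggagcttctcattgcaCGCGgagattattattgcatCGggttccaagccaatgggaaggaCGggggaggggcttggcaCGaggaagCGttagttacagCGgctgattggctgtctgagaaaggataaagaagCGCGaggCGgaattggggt
Sox11, chr12:27342719-27342968: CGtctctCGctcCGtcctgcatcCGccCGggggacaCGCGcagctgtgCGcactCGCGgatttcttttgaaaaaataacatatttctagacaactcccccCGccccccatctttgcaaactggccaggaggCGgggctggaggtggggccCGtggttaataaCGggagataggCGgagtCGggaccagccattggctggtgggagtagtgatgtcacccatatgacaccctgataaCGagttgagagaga
Sox12, chr2:152398047-152398296: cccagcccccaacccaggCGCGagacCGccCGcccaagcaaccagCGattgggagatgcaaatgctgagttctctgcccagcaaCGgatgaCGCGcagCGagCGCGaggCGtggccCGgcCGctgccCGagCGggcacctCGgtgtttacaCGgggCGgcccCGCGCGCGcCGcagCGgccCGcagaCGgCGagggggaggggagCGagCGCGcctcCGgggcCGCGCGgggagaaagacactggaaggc

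Sox12, which did not pass the threshold, had 35 CG dinucleotides in its window, more than 97% of the 32841 promoters searched. Sox11 had 17 and Sox4 had 11, more than 76.5% and 64.4% of promoters, where the median promoter had 6. The motif CCAAT, counted on either strand, occurred 4 times in Sox4 and 1 time each in Sox11 and Sox12, and 33.9% of all promoters held it. The motif GGGCGG occurred 2 times in Sox11, 3 times in Sox12 and 0 times in Sox4, and 32.7% of promoters held it. Neither TATAAA, held by 12.4% of promoters, nor AACAAT, a core Sox motif held by 9.43%, was found in any of the 3 windows. These matches describe letters, not binding sites.

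The SoxC genes are also close in sequence, which bears on how short reads are assigned. The longest stretch that Sox4 and Sox11 share without a mismatch in their coding sequence was 48 bases, within the HMG box (GENCODE M21 transcripts, shared bases in capitals, coding bases 214 to 285 of Sox4 and 184 to 255 of Sox11).
Sox4: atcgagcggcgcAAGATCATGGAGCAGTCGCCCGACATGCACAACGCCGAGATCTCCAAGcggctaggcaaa
Sox11: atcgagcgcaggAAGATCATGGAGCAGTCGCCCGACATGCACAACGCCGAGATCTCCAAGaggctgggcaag

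Sox4 shared at most 33 bases with Sox12. The sources used here do not say how reads that fit several genes were counted. Sox4 is also overlapped by the noncoding gene Gm46405 in the RefSeq annotation, and without a known strand setting reads of the pair cannot be told apart. The deposited length of Sox4 was 2967 bases, against a span of 4781 bases for this gene without introns, so its level per length depends on which bases were counted. The nearest annotated genes on both sides of Sox4 (Gm46406 and Gm52067) and of Sox11 (Gm52005 and Gm30855) are noncoding and were not analysed here.

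Of 6 genes linked to SoxC factors in the literature on neural and mesenchymal cells, 5 were tested, 3 rose and 0 fell (edgeR, 1 lower at an unadjusted p under 0.05, 0 by DESeq2), with a median log2 fold change of 1.91 against 0.04 over all genes. Over all genes tested, 17.3% rose and 7.41% fell. Tead2, a Hippo pathway factor and target of all 3 SoxC factors in mouse, rose to 7.24 ± 2.23 CPM in DKO, against 1.20 ± 0.352 CPM in SKO (log2 fold change 2.59, SE 0.42, adjusted p = 0.00169, n = 3 each). Isl1, a motor neuron and heart factor, had 10.5 ± 0.931 CPM in DKO and 2.80 ± 0.129 CPM in SKO (1.91, SE 0.30, adjusted p = 0.00143). Hes5, a Notch effector, had 1.44 ± 0.55 CPM in DKO and 2 counts in all of SKO (adjusted p = 0.00334). Hes5 needed DKO libraries to pass the filter, and 49.0% of such genes rose. The neuronal tubulin gene Tubb3 had 99.6 ± 63.3 CPM in DKO and 105 ± 18.6 CPM in SKO and did not pass, and the neuronal gene Dcx was too low to test.

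In the SoxE group, Sox9 rose in DKO, with 2 counts in all of SKO, while Sox8 carried nearly all of the group's RNA in both genotypes. Sox9 (chromosome 11, 112782210 to 112787757) encodes the factor that commits cells to cartilage and, in the fetal testis, to the Sertoli fate. It had 9.50, 3.85 and 2.29 CPM in DKO replicates 1 to 3, from 167, 82 and 59 counts. In SKO replicates 1 to 3 it had 1, 1 and 0 counts, at most 0.0460 CPM. Every DKO library was far above every SKO library, although the DKO libraries differed 4.15-fold among themselves. With 2 SKO counts the ratio of the summed levels was 169, with an exact 95% interval of 46.4 to 1402 for counting error. The edgeR log2 fold change was 7.27 (SE 0.90, adjusted p = 0.000328).

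Sox8 (chromosome 17, 25565893 to 25570686) encodes a Sertoli cell and glial factor. It had 134, 204 and 137 CPM in DKO libraries, from 2348, 4346 and 3541 counts, and 73.0, 105 and 116 CPM in the SKO libraries, from 1815, 2272 and 2831 counts. All 3 DKO libraries lay above all 3 SKO libraries, with DKO replicate 2 the highest. The log2 fold change was 0.69 (SE 0.23, edgeR adjusted p = 0.0513), just outside the threshold of 0.05, with 0.23 to 1.15 spanning 2 SE to either side. Over 16 alternative ways of processing, adjusted p-values ranged from 0.0201 to 0.206 and log2 fold changes from 0.46 to 0.86. Sox8 passed the threshold in 11 of them, with adjusted p-values of 0.0201 to 0.0494, and DESeq2 was among these, with 0.67 and an adjusted p of 0.0323.

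Sox10 (chromosome 15, 79154913 to 79164490), the factor of neural crest, glia and melanocytes, had 1, 5 and 0 counts in DKO libraries and 0 counts in all 3 SKO libraries. The exact 95% interval of the ratio for counting error had a lower limit of 1.29, but 5 of the 6 DKO counts came from replicate 2 and 1 DKO library had none. An exact two-sided permutation test on CPM over the 3 and 3 libraries gave p = 0.4, where the smallest p this design allows is 0.1. With 0 counts, a level of up to about 0.0423 CPM over the SKO group, worth 3 counts, stays possible.

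The start of Sox8 lies beside a noncoding gene, Cerox1, and its promoter is shown for that reason (RefSeq, GRCm38.p6, minus strand, 250 bases before the start, CG in capitals).
Sox8, chr17:25570687-25570936: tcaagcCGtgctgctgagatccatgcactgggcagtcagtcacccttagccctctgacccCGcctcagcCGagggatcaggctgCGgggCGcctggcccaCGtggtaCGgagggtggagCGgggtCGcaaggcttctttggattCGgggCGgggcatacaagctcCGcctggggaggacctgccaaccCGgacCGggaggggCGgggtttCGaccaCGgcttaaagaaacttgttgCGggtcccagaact

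This window held 18 CG dinucleotides, more than 78.3% of promoters, with GGGCGG 2 times on either strand and CCAAT 0 times. Cerox1 starts 124 bases from Sox8 on the other strand, so this window also covers the first bases of that gene. Cerox1 was named after its values were seen. It had 4.58 ± 0.75 CPM in DKO and 0.669 ± 0.140 CPM in SKO (log2 fold change 2.77, SE 0.44, adjusted p = 0.00149, n = 3 each). Sox8 stood at 158 ± 39.6 CPM in DKO and 97.9 ± 22.4 CPM in SKO. GENCODE M21 has the pair overlapping at the start of Sox8 on opposite strands, and without a known strand setting reads there cannot be told apart. The nearest annotated genes of Sox9, the noncoding Gm11681 at 4.97 kb and BC006965 at 70.9 kb, were below the filter. Gm11681 had 0.626 ± 0.382 CPM in DKO and 0.0715 ± 0.0275 CPM in SKO.

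Sox9 and Sox10 shared 44 coding bases without a mismatch, the longest such run within the group (shared bases in capitals, coding bases 235 to 302 of Sox9 and 232 to 299 of Sox10). Sox8 shared at most 26 bases with either.
Sox9: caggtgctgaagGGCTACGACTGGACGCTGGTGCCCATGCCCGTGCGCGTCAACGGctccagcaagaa
Sox10: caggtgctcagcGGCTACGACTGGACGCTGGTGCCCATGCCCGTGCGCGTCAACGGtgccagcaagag

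Of the 3 lists of genes linked to SoxE factors, 1 of 4, 3 of 9 and 0 of 5 tested genes rose, where 17.3% of all genes tested did. Among those that passed the filter on SKO libraries alone, 1 of 3, 1 of 7 and 0 of 2 rose, where 11.9% did. Among those that needed DKO libraries to pass, 0 of 1, 2 of 2 and 0 of 3 rose, where 49.0% did. Of 11 cartilage genes, 4 could be tested, and 1 rose and 0 fell (0 at an unadjusted p under 0.05, 0 by DESeq2). The riser was Matn1, a cartilage matrix protein gene, with 4.82 ± 1.73 CPM in DKO and 1.75 ± 0.340 CPM in SKO (log2 fold change 1.46, SE 0.43, adjusted p = 0.0332). With DKO replicate 2 left out, 2 genes of this list rose, and with no filter beyond 1 count 3 did. The adjusted p of Matn1 was up to 0.112 with a library left out. The main cartilage collagen gene Col2a1, a direct Sox9 target, stayed at 0.0569 ± 0.0986 CPM in DKO and 0.0290 ± 0.0253 CPM in SKO and was not tested. Acan, the gene of the cartilage proteoglycan aggrecan, was also below the filter, with 22, 8 and 28 counts in DKO and 0 in SKO.

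Of 15 genes linked to SoxE factors in neural crest, glia and melanocytes, 9 were tested, 3 rose and 0 fell by edgeR (1 lower at an unadjusted p under 0.05, 1 by DESeq2). Of these risers, Ret and Foxd3 needed DKO libraries to pass the filter, and 49.0% of such genes rose. Mbp passed on SKO libraries alone. The receptor kinase gene Ret had 5.97 ± 1.34 CPM in DKO and 0.135 ± 0.167 CPM in SKO (log2 fold change 5.38, SE 0.77, adjusted p = 0.000781). Foxd3, a neural crest and stem cell factor, had 76, 36 and 38 counts in DKO libraries and 2 in all of SKO (adjusted p = 0.00168). The myelin gene Mbp had 24.7 ± 3.34 CPM in DKO and 10.6 ± 2.30 CPM in SKO (1.22, SE 0.26, adjusted p = 0.00644). The melanocyte factor Mitf did not pass, at 20.8 ± 3.38 CPM in DKO and 14.8 ± 1.49 CPM in SKO. Of 6 genes of the fetal male gonad, 5 were tested and 0 were called (edgeR, 1 higher at an unadjusted p under 0.05, 0 by DESeq2). With the GC and length trend removed, 1 was called higher. Among them Amh, a Sox9 target in Sertoli cells, had 0.794 ± 0.549 CPM in DKO and 1.63 ± 1.34 CPM in SKO. The median log2 fold changes of the 3 lists were 1.19, 0.77 and 0.88.

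The glial marker S100b was at 0 in every library, while Mbp, a marker of glia too, rose as given above. Markers of granulosa and cumulus cells summed to 181 to 207 CPM in DKO and 109 to 134 CPM in SKO. Of 9 tested among 11, 4 rose and 1 fell, where 17.3% of all genes tested rose and 7.41% fell. Of the 6 that passed the filter on SKO libraries alone, 3 rose, where 11.9% of such genes did. Of the 3 that needed DKO libraries, 1 rose, where 49.0% did. Without SKO replicates 1, 2 and 3 in turn, 1, 2 and 2 rose, and the lower call was lost under 5 alternatives. The adjusted p of Nr5a2 was up to 0.197 and that of Cyp19a1 up to 0.107 over the alternatives. Fshr had a log2 fold change of 5.91 (SE 0.30, edgeR adjusted p = 1.35e-06). Over the 16 alternatives it ranged from 5.84 to 6.22, with adjusted p-values of at most 4.45e-05. Nr5a2 had 117 ± 15.5 CPM in DKO and 79.1 ± 9.97 CPM in SKO, and Fshr had 30.7 ± 2.54 CPM in DKO and 0.506 ± 0.0397 CPM in SKO. Cyp19a1 fell, at 16.98 ± 1.49 CPM in DKO and 29.98 ± 6.00 CPM in SKO. The part of such cells in the Sox values was not tested.

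In the SoxF group, Sox17 rose while Sox7 was lower without passing the threshold. Sox17 (chromosome 1, 4490928 to 4497426) encodes a factor of definitive endoderm, arterial endothelium and, in human, primordial germ cells. It had 4.38, 2.53 and 0.427 CPM in DKO replicates 1 to 3, from 77, 54 and 11 counts. In the SKO libraries it had 0, 0 and 2 counts. All DKO libraries were above all SKO libraries, and the DKO libraries differed 10.3-fold among themselves. The ratio of the summed levels was 77.9, with an exact 95% interval of 21.2 to 649.6 for counting error. The log2 fold change was 6.18 (SE 1.21, edgeR adjusted p = 0.00458). DKO replicate 3 lay close to the filter's bar of about 0.413 CPM, so Sox17 was only just tested. Without SKO replicate 3, which held both SKO counts, the log2 fold change was 8.75, and without DKO replicate 1 it was 5.47.

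Sox7 (chromosome 14, 63943706 to 63950732) encodes a factor of endoderm and early blood vessels. It had 0.228, 0.610 and 0 CPM in DKO libraries, from 4, 13 and 0 counts, and 0.965, 0.736 and 0.287 CPM in the SKO libraries, from 24, 16 and 7 counts. The groups overlapped, and SKO replicate 3 lay below DKO replicate 2. The log2 fold change was -1.26 (SE 1.02, adjusted p = 0.406), and 2 SE to either side spanned -3.30 to 0.79. Sox18 (chromosome 2, 181669837 to 181671640), a factor of lymphatic vessels, had 1, 2 and 0 counts in DKO and 3, 1 and 0 counts in SKO. The ratio of its summed levels was 0.823 with an exact 95% interval of 0.121 to 4.86, and the exact permutation test gave p = 1. A difference was not detectable at this depth.

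Sox17 and Sox18 shared 29 coding bases without a mismatch, in the HMG box (shared bases in capitals, coding bases 325 to 377 of Sox17 and 358 to 410 of Sox18). The count of Sox18 stayed near 0 where Sox17 rose. Sox7 shared 22 bases with Sox17 and 20 with Sox18, and a longer run of 30 with Sox8 of the SoxE group.
Sox17: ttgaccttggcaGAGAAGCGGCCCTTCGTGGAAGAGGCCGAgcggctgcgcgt
Sox18: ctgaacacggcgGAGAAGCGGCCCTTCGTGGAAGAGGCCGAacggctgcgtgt

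The neighbour of Sox17, the photoreceptor gene Rp1 at 81.7 kb, did not pass the threshold, at 2.99 ± 0.54 CPM in DKO and 2.56 ± 0.79 CPM in SKO (log2 fold change 0.23, SE 0.42, adjusted p = 0.733). Gm7357, a pseudogene on the other side, was not analysed here.

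Of 12 genes linked to SoxF factors in vessels, 7 were tested, 4 rose and 0 fell (edgeR, 0 at an unadjusted p under 0.05, 0 by DESeq2), with a median log2 fold change of 1.49. Without DKO replicate 2, 2 rose. Over all genes tested, 17.3% rose and 7.41% fell. Of the 6 listed genes that passed the filter on SKO libraries alone, 3 rose, where 11.9% of such genes did. The fourth riser, Vcam1, needed DKO libraries to pass, where 49.0% rose. Prox1, the lymphatic regulator that Sox18 activates in mouse, had 94.0 ± 50.1 CPM in DKO and 12.1 ± 8.73 CPM in SKO (log2 fold change 2.96, SE 0.54, adjusted p = 0.00309). Kdr, a VEGF receptor gene, had 11.6 ± 4.56 CPM in DKO and 3.68 ± 1.004 CPM in SKO (1.65, SE 0.40, adjusted p = 0.0127). Notch1 and the adhesion gene Vcam1 rose by 1.49 and 2.05 on the log2 scale, with adjusted p-values of 0.0340 and 0.0395. The calls of Kdr, Notch1 and Vcam1 were lost with some libraries left out, with adjusted p-values up to 0.0553, 0.126 and 0.108.

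Of 13 genes linked to SoxF factors in endoderm, 9 were tested, 5 rose and 0 fell (edgeR, 0 at an unadjusted p under 0.05, 0 by DESeq2), with a median of 0.85. Over all genes tested, 17.3% rose and 7.41% fell. Of the 7 listed genes that passed the filter on SKO libraries alone, 4 rose, where 11.9% of such genes did. Of the 2 that needed DKO libraries, 1 rose (Foxa1), where 49.0% did. Gata4 had 129 ± 2.66 CPM in DKO and 52.3 ± 4.78 CPM in SKO (log2 fold change 1.31, SE 0.16, adjusted p = 0.000328). The pioneer factor gene Foxa1 had 3.87 ± 0.297 CPM in DKO and 0.266 ± 0.162 CPM in SKO (3.83, SE 0.56, adjusted p = 0.000909). Without any 1 of the SKO replicates, 3 rose. Cxcr4, a chemokine receptor gene, rose by 1.96 on the log2 scale and Col4a1, a basement membrane collagen gene, by 0.99, and the call of Col4a1 was lost under some alternatives with an adjusted p of up to 0.0761. Gata6 stood at 6.18 ± 1.28 CPM in DKO and 6.09 ± 1.40 CPM in SKO, and Foxa2 was too low to test.

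Endothelial markers did not move together. The 8 genes summed to 103 to 129 CPM in DKO and 117 to 157 CPM in SKO. Of 4 tested, 1 rose (Kdr) and 1 fell, where 17.3% of all genes tested rose and 7.41% fell. The calls differed by library: 2 rose without DKO replicate 3, SKO replicate 1 or SKO replicate 2, and 0 fell without SKO replicate 3, where Pecam1 had an adjusted p of 0.0512. Pecam1 fell, with 60.9 ± 7.75 CPM in DKO and 109 ± 17.2 CPM in SKO, and Tek had 32.7 ± 3.09 CPM in DKO and 25.5 ± 4.35 CPM in SKO. Of the defining markers, Emcn was at 0 in every library and Cdh5 and Egfl7 were at 0 in SKO and at or below 0.0469 CPM in DKO on average. Cldn5, another defining marker, was below the filter, with 14, 49 and 7 counts in DKO libraries and 1 count in all of SKO. Kdr, Tek, Tie1, Cldn5, Cdh5 and Egfl7 are entered in the SoxF vessel list too. Theca and stroma markers summed to 47.6 to 53.6 CPM in DKO and 14.4 to 19.997 CPM in SKO, with 5 of 7 tested higher and 0 lower (edgeR, 0 at an unadjusted p under 0.05, 0 by DESeq2). With a minimum count of 30 or a mean CPM of at least 1, which leave fewer genes to test, 3 were higher. Of the 3 theca and stroma markers that passed the filter on SKO libraries alone, 2 rose, where 11.9% of such genes did. Of the 4 that needed DKO libraries, Dcn among them, 3 rose, where 49.0% did. Cyp11a1 led them at 36.9 ± 2.68 CPM in DKO and 14.6 ± 2.76 CPM in SKO. Pdgfra had 4.99 ± 0.266 CPM in DKO and 0.765 ± 0.283 CPM in SKO, and Dcn had 3.43 ± 0.887 CPM in DKO and 0.518 ± 0.156 CPM in SKO. Star did not pass, at 1.11 ± 0.306 CPM in DKO and 1.17 ± 0.573 CPM in SKO. Lhcgr did not pass either, at 1.77 ± 0.492 CPM in DKO and 0.465 ± 0.566 CPM in SKO. Col1a1 and Lum, which needed DKO libraries to pass the filter, rose with edgeR adjusted p-values of 0.00239 and 0.00559. Cyp17a1 and Col1a2 were too low to test, at 0.0849 and 0 CPM in DKO, against 0.217 and 0.0614 CPM in SKO. Cyp17a1 had 2, 3 and 0 counts in DKO libraries and 8, 0 and 8 in SKO libraries. Col1a2 had 4 counts in SKO replicate 2 and 0 in every other library. Blood and immune markers summed to 2.82 to 5.01 CPM in DKO and 1.15 to 3.46 CPM in SKO, with both globin genes at 0 and Cd68 the only one tested. The part of these markers in the SoxF values was not tested.

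**Figure D2:**
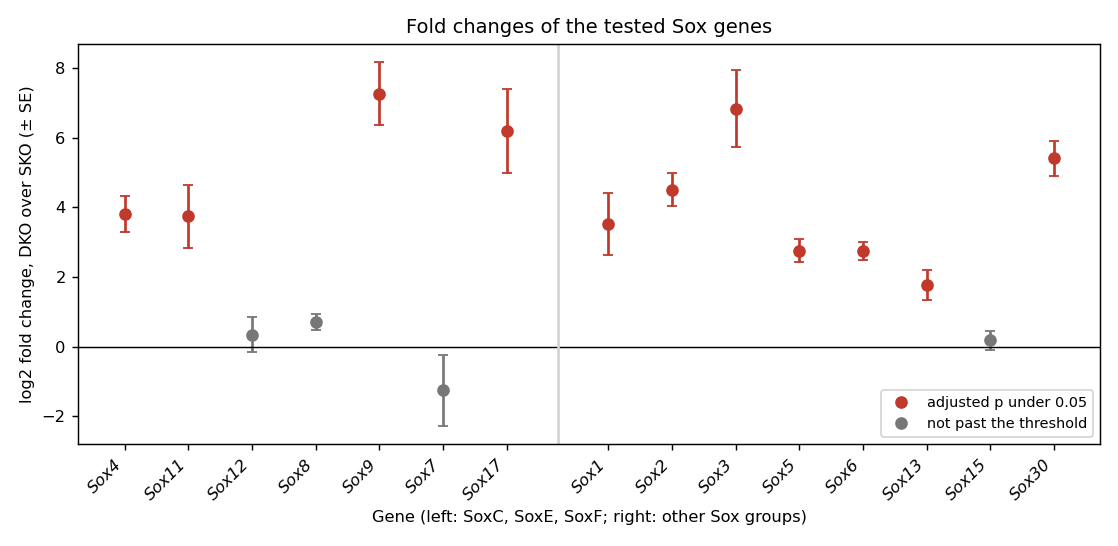
Log2 fold changes (DKO over SKO, with bars of 1 SE) of the 7 tested genes of groups C, E and F and of the 8 tested genes of the other Sox groups. Red points passed an adjusted p of 0.05 and grey points did not: Sox12, Sox8, Sox7 and Sox15.

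The other Sox groups, plotted beside the 9 genes, held 11 further genes, of which 8 were tested, 7 rose and 0 fell (edgeR, 0 at an unadjusted p under 0.05, 0 by DESeq2). Their median log2 fold change was 3.13. Over all genes tested, 17.3% rose and 7.41% fell. Sox30, a testis factor, had 19.5, 15.8 and 27.7 CPM in DKO and 0.845, 0.414 and 0.205 CPM in SKO (log2 fold change 5.41, SE 0.49, adjusted p = 4.8e-05). Sox2, the pluripotency and neural factor, had 27.4, 18.1 and 12.5 CPM in DKO and 1.21, 0.921 and 0.411 CPM in SKO (4.50, SE 0.47, adjusted p = 0.000111). The SoxD genes Sox6 and Sox5 are partners of Sox9 in cartilage. Sox6 had 63.0 ± 17.2 CPM in DKO and 9.45 ± 1.501 CPM in SKO, and Sox5 had 25.4 ± 7.67 CPM in DKO and 3.74 ± 1.16 CPM in SKO. Of these 8 genes, Sox15 did not pass, at 24.6 ± 5.96 CPM in DKO and 21.7 ± 6.15 CPM in SKO. Unlike the 4 risen members of groups C, E and F, the 3 SoxD genes Sox5, Sox6 and Sox13 passed the filter on SKO libraries alone, where 11.9% of genes were called higher. The other 4 risers, Sox1, Sox2, Sox3 and Sox30, needed DKO libraries to pass, as the risen members did, and 49.0% of such genes were called higher. No difference between the Sox groups was tested, since genes are not replicates.

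Proteins that work with Sox factors were also counted. All 12 partner genes were tested, 6 rose and 0 fell (edgeR, 0 at an unadjusted p under 0.05, 0 by DESeq2), with a median of 1.08. Over all genes tested, 17.3% rose and 7.41% fell. Of the 6 partners that passed the filter on SKO libraries alone, 2 rose, where 11.9% of such genes did. Of the 6 that needed DKO libraries, 4 rose, where 49.0% did, and Pou3f2, Pax3 and Tcf7l1 were among these. Pou3f2, a neural POU factor that pairs with Sox11, had 5.07, 2.58 and 2.44 CPM in DKO libraries and 3 counts in all of SKO (adjusted p = 0.0005). Pax3, which works with Sox10 in neural crest, had 10.6 ± 1.33 CPM in DKO and 0.506 ± 0.388 CPM in SKO (log2 fold change 4.35, SE 0.59, adjusted p = 0.000535). Of the Wnt pathway factors, Tcf7 had 257 ± 43.1 CPM in DKO and 107 ± 3.89 CPM in SKO, and Tcf7l1 had 12.1 ± 3.24 CPM in DKO and 0.957 ± 0.649 CPM in SKO. Ctnnb1, the gene of beta-catenin, had 458 ± 31.6 CPM in DKO and 407 ± 48.1 CPM in SKO and did not pass.

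**Figure D3:**
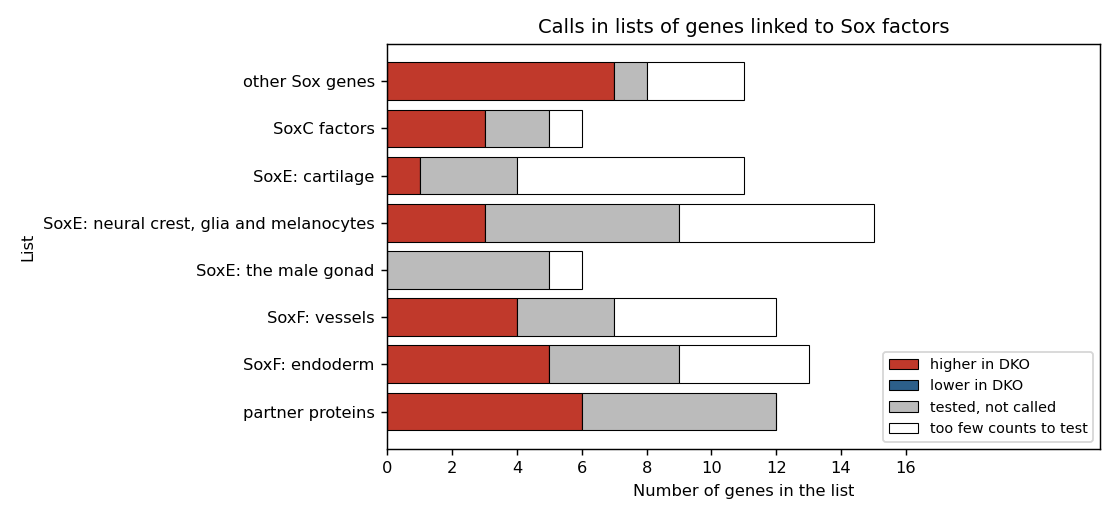
Number of genes in each list linked to Sox factors that were called higher in DKO, called lower, tested without a call, or left untested for low counts. The red bars hold 29 genes in all, no list has a blue bar, and the white bars are longest for the cartilage list, at 7 of 11 genes.

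Over the 8 lists together, 29 of 59 tested genes rose and 0 fell by edgeR (2 lower at an unadjusted p under 0.05, 1 lower by DESeq2), and 27 of 86 were too low to test. Many of them are developmental regulators in their own right, so their rises and those of the Sox genes are counted side by side and no order between them was tested. Of the 39 that passed the filter on SKO libraries alone, 16 rose, where 11.9% of all such genes did, and of the 20 others 13 rose, where 49.0% did.

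Levels were then compared between the genes per length, as CPM per kilobase of deposited gene length. Sox8 stood far above the rest in both genotypes, at 50.8 ± 12.7 in DKO and 31.4 ± 7.18 in SKO, which was 86.5% to 93.8% of the summed level of the 9 genes in DKO libraries and 93.7% to 98.6% in SKO libraries. In DKO it was followed by Sox4 at 1.30 ± 0.02, Sox9 at 1.26 ± 0.92 and Sox12 at 1.15 ± 0.28, which did not differ beyond their spread. Then came Sox17 at 0.564 ± 0.456 and Sox11 at 0.298 ± 0.203, which overlapped, and Sox7, Sox10 and Sox18 at 0.0855 or less. In SKO the order after Sox8 was Sox12 at 0.906 ± 0.516, Sox7 at 0.203 ± 0.106 and Sox4 at 0.0908 ± 0.0307, with the others at 0.0343 or less. Summed by group, SoxC reached 2.75 ± 0.49 in DKO and 1.02 ± 0.53 in SKO, SoxE 52.1 ± 12.4 in DKO and 31.4 ± 7.17 in SKO, and SoxF 0.681 ± 0.524 in DKO and 0.244 ± 0.132 in SKO. The 8 genes other than Sox8 together reached 4.72 ± 1.88 in DKO, against 1.27 ± 0.64 in SKO.

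The risen members differed in how evenly they rose. All 4 had their highest DKO level in replicate 1, and Sox11, Sox9 and Sox17 had their lowest in replicate 3, while Sox4 was even. Among the 1050 called genes that needed DKO libraries to pass the filter, 42.8% had their highest DKO level in replicate 1 and 41.7% their lowest in replicate 3. The highest DKO level was a median of 2.06 times the lowest among those genes. Only 0.286% of them were as even as Sox4, and 4.57%, 1.52% and 11.3% were at least as uneven as Sox11, Sox17 and Sox9. These shares are not matched for count level, and counting error enters them. Sox4 had 69, 81 and 99 counts in DKO replicates 1 to 3, and Sox17 had 77, 54 and 11. The part of counting error in the evenness or unevenness was not tested. On the log2 scale, the median of those 1050 genes stood above the SKO mean by 3.68, 3.48 and 3.47 in DKO replicates 1 to 3, and the median of all 2567 genes called higher by 2.43, 2.40 and 2.36. These genes were chosen by the same contrast, so the values are a description. Rnf2 itself was highest in DKO replicate 1 and lowest in replicate 3, as given above, and its part in the unevenness was not tested.

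**Figure D4:**
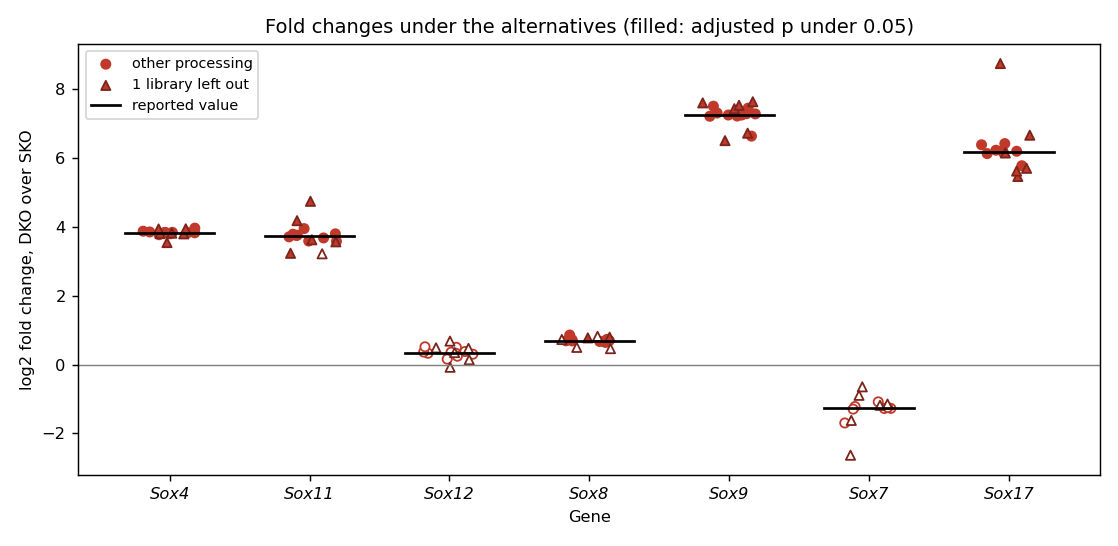
Log2 fold change (DKO over SKO) of the 7 tested genes under the alternatives, with circles for other processing, triangles for 1 library left out, filled symbols for an adjusted p under 0.05 and a bar for the reported value. Sox4, Sox9 and Sox17 stay filled wherever they were tested, Sox11 has 1 open symbol at 3.22, and Sox8 has both kinds.

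Across the alternatives, shown in the plot of fold changes by processing, Sox4 and Sox9 were called in all 16, at 3.55 to 3.97 and 6.51 to 7.64. Sox17 was called in the 14 in which it passed the filter and could be tested, and Sox11 in 14 of 15.

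The genes whose levels followed Sox8 most closely, by Pearson r on log2 CPM over the 6 libraries, were Fam214a (0.990), Letmd1 (0.986) and Acrv1 (0.980). With 6 points shared between 2 genotypes, 26 genes had an r over 0.95. None of these 3 genes was called.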

How the data were processed

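Pools of GV oocytes were sequenced after amplification with the Ovation v2 kit (per the labels' protocols). Amplified reads are not separate molecules, so intervals and floors cover counting error only. The authors deposited raw read counts per Entrez gene and gene lengths (the header's width column, another measure in bases). The submitters' processing notes list STAR 2.5.0a with GRCm38 and mm10. Counter, annotation and strand setting: not given in the sources used here. Of 24421 identifiers, 24387 matched the RefSeq table of GRCm38.p6, which gave symbols and coordinates. Groups came from the sample titles, and each title matched 1 column.

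The test was edgeR 4.0.16 (R 4.3.3): filterByExpr (minimum count 10, minimum total 15), TMM scaling, and the two-sided quasi-likelihood test of DKO against SKO without covariates, with p-values adjusted by Benjamini-Hochberg over the 14845 genes that passed. Calls are at an adjusted p under 0.05. The SE comes from the F statistic. DESeq2 1.42.0 was an alternative, with others on scaling, filters, depth, GC content and left-out libraries. The code was checked on simulated counts. Promoters are from RefSeq, and 4 of the 9 genes matched. Those of Sox9, Sox10, Sox7, Sox17 and Sox18 are named only.

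The members and lists were chosen with earlier results of these data known. In each list linked to Sox factors, up to 4 called genes with the smallest adjusted p are named, and in each marker list but that of glia the 3 most abundant tested genes. Results on the glia list as a whole are not reported here. Members below the filter are given as counts. A few genes outside this rule, such as Cerox1, Sox15 and genes that did not pass, were named after their values were seen.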

Additional observations from a re-analysis of the deposited data

How the results depend on the processing

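Directions and calls of Sox4, Sox9, Sox17 and Sox7 held under every alternative in which they were tested. Sox11 and Sox17 were not tested with a minimum count of 30, nor Sox17 with counts thinned to the smallest library. Sox7 dropped out under 3 alternatives. Sox11 ranged from 3.22 (adjusted p = 0.0569, without DKO replicate 1) to 4.75 with a library left out. Sox12 ranged from -0.076 to 0.68 with a library left out and was never called. Sox8 passed the threshold with library totals alone (0.86), upper-quartile factors (0.74), DESeq2 (0.67), no filter beyond 1 count (0.65), a minimum count of 30 (0.72), a mean CPM of at least 1 (0.72), the GC and length trend removed (0.69) and thinned counts (0.70), and ranged from 0.46 to 0.82 with a library left out. The cause of these shifts was not tested.

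Same-numbered libraries deviated together with r = 0.139, 0.0773 and 0.0479, so the numbers were not taken to pair them, though every library correlated best with its own number. With the replicate block, 2651 genes were higher and 1364 lower, against 2567 and 1100 without it, and Sox8 had 0.69 with an adjusted p of 0.0225. The count of lower genes was 596 with library totals alone, where rises were 82.9% of calls against 70% and the median log2 fold change was 0.20, and 434 to 1501 with a library left out. The count of lower genes in the Sox-linked lists was 1 with DESeq2 and 0 to 2 with a library left out. The blood marker Cd68 ranged from -0.50 to 0.71 with a library left out and was -0.052 without SKO replicate 3.

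Members near the floor of 3 counts per library (0.116 to 0.171 CPM in DKO, 0.121 to 0.138 CPM in SKO) limit what can be said of Sox10 and Sox18.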
